A study of Mus musculus with 16 samples.

Results

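The 9 genes of the epidermal growth factor (EGF) family described here were read across mouse muscle stromal cells after injection of the neuropeptide CGRP (calcitonin gene-related peptide) or of PBS. They are the 6 ligand genes Hbegf, Areg, Ereg, Tgfa, Btc and Nrg1 and the 3 receptor genes Egfr, Erbb2 and Erbb3, taken by symbol from the 52997 symbols of the count table. The 9 members were chosen by their family and selected on measured values of these same counts, among them the differences between CGRP and PBS. Their values are therefore given as descriptions, with no p-value of their own. All 9 had reads in at least 5 of the 16 libraries, and 5 of them (Hbegf, Btc, Egfr, Erbb2 and Erbb3) passed the filter on low counts that left 13949 genes for testing.

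Ligands of this family are made as membrane-anchored precursors. Metalloproteases cut them at the cell surface, and the released ligand binds EGFR, ERBB3 or ERBB4 on the same cell or a neighbour. Bound receptors pair with each other, preferentially with ERBB2, which has no ligand of its own, and signal through the RAS-ERK and PI3K pathways, which in turn induce feedback inhibitors. In tissue repair amphiregulin and HB-EGF act as local growth signals.

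The cells were mesenchymal stromal cells, the connective tissue cells of the muscle, double-sorted from the hindlimb of C57BL/6 mice aged 8 weeks. There were 4 groups, each with 4 libraries that the submitters call biological replicates: CGRP at 4 h, PBS at 4 h, CGRP at 8 h and PBS at 8 h, where the time runs to cell isolation after an intraperitoneal injection. No genotype beyond the strain is labelled. The dose, the sort gate, the collection days and whether a library stands for 1 mouse or a pool are not stated in the labels. The p-values therefore set a group difference only against the spread between these libraries, which may be partly technical.

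Each library was made from the polyadenylated RNA of 1000 cells and held 6373713 to 10011920 counted reads. All 7 stromal markers (Pdgfra, Pdpn, Col1a1, Col3a1, Dcn, Gsn and Ly6a) were read in every library. Their sum in CPM, read counts scaled to library size, was 142935 to 150334 after CGRP and 158873 to 182134 after PBS at 4 h, and 136141 to 154989 after CGRP and 158239 to 171334 after PBS at 8 h. Most of that sum was Gsn, at a mean of 106021 CPM over the 16 libraries. Its members did not all lie lower after CGRP: Pdgfra did at both times, whereas every CGRP library lay above every PBS library of the same time for Ly6a and for Pdpn, which had 808 to 1196 CPM after CGRP and 372 to 542 CPM after PBS at 4 h, and 591 to 1233 CPM after CGRP and 300.0 to 355 CPM after PBS at 8 h. The leukocyte gene Ptprc had 40 reads in all 16 libraries together, the epithelial gene Epcam 11, the satellite cell gene Pax7 7 and Myf5 none. Some other markers held more: the myeloid marker Cd68 had 441 reads, the lymphocyte marker Il2ra 718 and the myofibre gene Acta1 10994. In bulk libraries such as these, fewer cells of a type and less RNA per cell cannot be told apart.

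Egfr and Erbb2 had the highest mean levels of the 9 genes. On a scale of CPM per kilobase of exonic length, which allows levels of different genes to be compared, Egfr averaged 36.1 and Erbb2 7.64 over the 16 libraries. Hbegf averaged 1.20 and Btc 0.727 CPM per kb, and Erbb3, the receptor that binds neuregulins and has little kinase activity of its own, averaged 0.228. The remaining ligand genes lay lower, with Tgfa at 0.0850, Areg at 0.0729, Ereg at 0.0723 and Nrg1 at 0.0343 CPM per kb. The ranges of Egfr and Erbb2 did not overlap each other, but that of Erbb2 and that of Hbegf did: the lowest Erbb2 library had 5.33 CPM per kb and the highest Hbegf library 6.19. Those of Hbegf, Btc and Erbb3 overlapped one another, as did those of the 4 lowest genes. The coefficient of variation of CPM over the 16 libraries was 11.6% for Egfr and 14.9% for Erbb2, and for the other members it was 44.3% for Btc, 71.6% for Erbb3, 74.8% for Tgfa, 106% for Nrg1, 129% for Hbegf, 130% for Ereg and 200% for Areg.

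**Figure D1:**
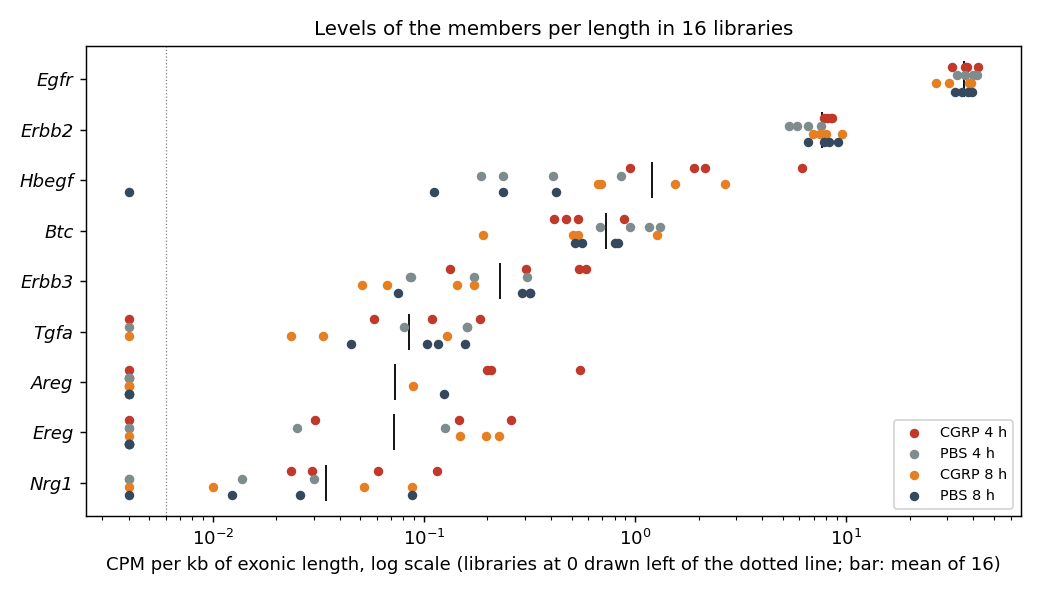
CPM per kb of exonic length (log axis) for the 9 members, with 1 point per library coloured by group and a bar at the mean of the 16 libraries. Egfr (mean 36.1) and Erbb2 (mean 7.64) have the highest means, the highest Hbegf library (6.19) lies above the lowest Erbb2 library (5.33), and the points left of the dotted line are libraries with 0 reads.

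Hbegf, the gene of heparin-binding EGF-like growth factor, had the largest log2 fold change of the 5 members that could be fitted, 2.74 ± 0.73 (SE) for CGRP over PBS at 4 h. It lies on chromosome 18 (36504927 to 36515805, minus strand, GRCm38 positions of GENCODE M21, as for all positions of genes here). At 4 h it had 4.57, 10.4, 9.17 and 29.9 CPM in the CGRP libraries, against 4.13, 1.14, 0.904 and 1.98 CPM in the PBS libraries. The groups did not overlap, but the lowest CGRP library and the highest PBS library were close, and CGRP replicate 4 stood well above the other 3. The 8 h libraries had 12.9, 3.23, 3.33 and 7.49 CPM after CGRP, against 1.15, 2.05, 0 and 0.537 CPM after PBS. Here too every CGRP library lay above every PBS library, and PBS replicate 3 held no read of the gene among 6745884.

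In means, Hbegf averaged 13.5 ± 11.2 CPM in CGRP cells and 2.04 ± 1.47 CPM in PBS cells at 4 h, and 6.75 ± 4.58 CPM in CGRP cells and 0.933 ± 0.879 CPM in PBS cells at 8 h (SD, n = 4 each). The log2 fold change of CGRP over PBS was 2.83 ± 0.83 (SE) at 8 h, close to that at 4 h, and the effect at 8 h minus the effect at 4 h was 0.08 ± 1.01 on the log2 scale. The level itself was lower at 8 h than at 4 h under both injections, with log2 differences of −0.99 ± 0.65 after CGRP and −1.07 ± 0.91 after PBS, with overlapping libraries in each case. These time differences and the CGRP effects share libraries.

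Btc, the gene of betacellulin, a ligand of EGFR and ERBB4, lies on chromosome 5 (91357261 to 91402994, minus strand). At 4 h it had 2.44, 3.99, 2.14 and 1.86 CPM in CGRP libraries, against 5.27, 4.26, 3.10 and 5.93 CPM in PBS libraries. All CGRP libraries but replicate 2 lay below all PBS libraries; that replicate lay inside their range. The log2 fold change of CGRP over PBS was −0.83 ± 0.41 at 4 h. It was −0.11 ± 0.42, at 8 h, with 2.43, 0.863, 5.73 and 2.29 CPM after CGRP and 2.54, 2.34, 3.65 and 3.76 CPM after PBS. The CGRP libraries at 8 h spanned the whole PBS range, with both the lowest and the highest value of the 8.

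Egfr, the receptor of most EGF family ligands, lies on chromosome 11 (16752203 to 16918158, plus strand) and was the steadiest member. It had 422, 360, 414 and 477 CPM in CGRP libraries at 4 h, against 415, 377, 469 and 451 CPM in PBS libraries. The values at 8 h were 300, 348, 431 and 440 CPM after CGRP, against 400, 425, 447 and 369 CPM after PBS. The groups overlapped at both times. The log2 fold change of CGRP over PBS was −0.03 ± 0.11 at 4 h and −0.11 ± 0.11 at 8 h.

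Erbb2, the shared co-receptor, lies on the same chromosome (98412470 to 98437716, plus strand). At 4 h it had 44.0, 40.8, 44.5 and 42.2 CPM in CGRP libraries, against 30.4, 27.8, 34.5 and 39.7 CPM in PBS libraries, and the groups did not overlap. The difference was small beside that of Hbegf, with a log2 fold change of 0.37 ± 0.13. Its 8 h values were 39.2, 49.6, 41.8 and 36.1 CPM after CGRP, against 34.4, 41.0, 43.3 and 47.8 CPM after PBS. Here the groups overlapped and had nearly equal means, of 41.7 ± 5.77 CPM in CGRP cells and 41.6 ± 5.62 CPM in PBS cells (SD, n = 4 each). The PBS cells at 4 h were thus the group that stood apart, at 33.1 ± 5.20 CPM, and Erbb2 in PBS cells was 0.33 ± 0.13 higher at 8 h than at 4 h on the log2 scale, with overlapping libraries. Exons of Mien1 overlap those of Erbb2 on the opposite strand, and the libraries do not mark the strand. Mien1 differed little at 4 h, with 23.3 ± 2.93 CPM after CGRP and 23.8 ± 3.72 CPM after PBS (SD, n = 4 each), and at 8 h it rose by 0.56 ± 0.15 on the log2 scale (adjusted p = 0.0243 by edgeR).

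Erbb3 lies on chromosome 10 (128567523 to 128589652, minus strand) and had fold changes of opposite sign at the 2 times. At 4 h it had 1.83, 3.51, 3.27 and 0.798 CPM in CGRP libraries, against 1.85, 0.520, 0.516 and 1.04 CPM in PBS libraries. Erbb3 at 8 h had 0.404, 0.863, 1.04 and 0.306 CPM after CGRP, against 1.91, 1.90, 0.456 and 1.75 CPM after PBS. The groups overlapped at both times, through CGRP replicates 1 and 4 at 4 h and PBS replicate 3 at 8 h. The log2 fold change of CGRP over PBS was 1.27 ± 0.57 at 4 h and −1.16 ± 0.60 at 8 h, and the effect at 8 h minus the effect at 4 h was −2.43 ± 0.83. These values rest on 2 to 29 reads per library.

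**Figure D2:**
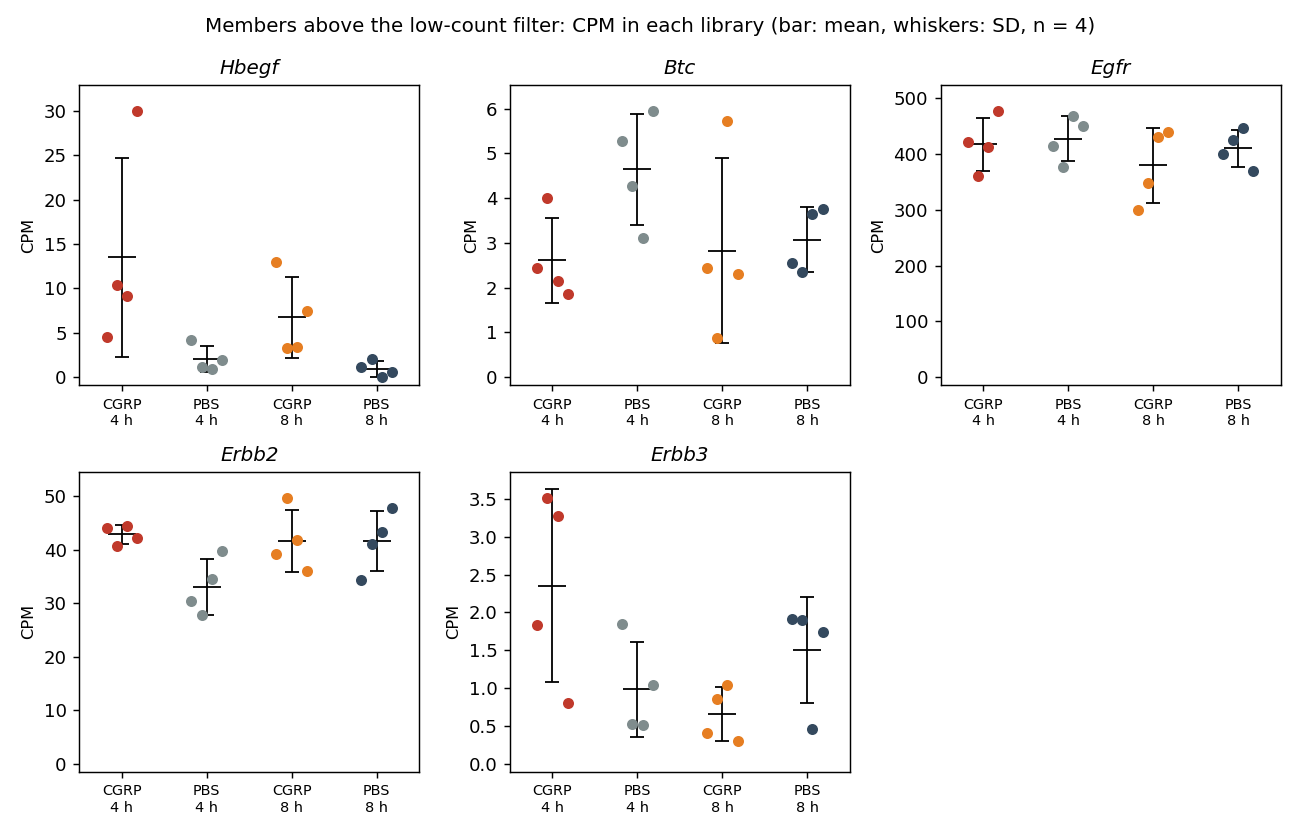
CPM of the 5 members above the low-count filter, with 1 point per library (replicates 1 to 4 in order within a group), a bar at the group mean and whiskers of 1 SD (n = 4). Hbegf is higher in every CGRP library than in every PBS library of the same time, Erbb2 only at 4 h, and the Egfr groups overlap.

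With the fit over all 13949 genes (edgeR's quasi-likelihood test, Benjamini-Hochberg adjustment, threshold 0.05), 1 of the 5 members passed in the higher direction at 4 h, where 7.84% of all genes did, and none in the lower direction, where 8.37% did. At 8 h again 1 of 5 passed in the higher direction (5.00% of all genes) and none in the lower (3.67%). In both cases it was Hbegf. Libraries of CGRP lay wholly above those of PBS for 2 of the 5 members at 4 h (8.95% of all genes) and for 1 of 5 at 8 h (8.08%). None of the 5 passed for the difference between the 8 h and 4 h effects (1.12% of all genes in either direction), for 8 h against 4 h after PBS (0.516%) or for 8 h against 4 h after CGRP (7.26%). Since these contrasts were known when the members were picked, nothing is read from the counts.

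The pass of Hbegf at 4 h was lost without CGRP 4 h replicate 4, without PBS 4 h replicate 2 and without PBS 4 h replicate 3. Over 23 other settings its log2 fold change at 4 h stayed between 2.01 and 3.31 and passed in 18. Those 18 included leaving out each single 8 h library, none of which is in the groups compared. The 8 h value stayed between 2.28 and 3.51 and passed in 9 of 23. At 8 h the pass was lost without any 1 of CGRP 8 h replicates 1 and 4, PBS 8 h replicates 1, 3 and 4, CGRP 4 h replicates 2 and 3, or PBS 4 h replicates 2, 3 and 4. Erbb2 at 4 h, just outside the threshold here, passed in 12 of the 23 settings, with a log2 fold change of 0.30 to 0.48. Those 12 also included leaving out each single 8 h library, none of which is in the groups compared. Of the single 4 h libraries, only leaving out PBS 4 h replicate 4, its highest PBS library, gave a pass.

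**Figure D3:**
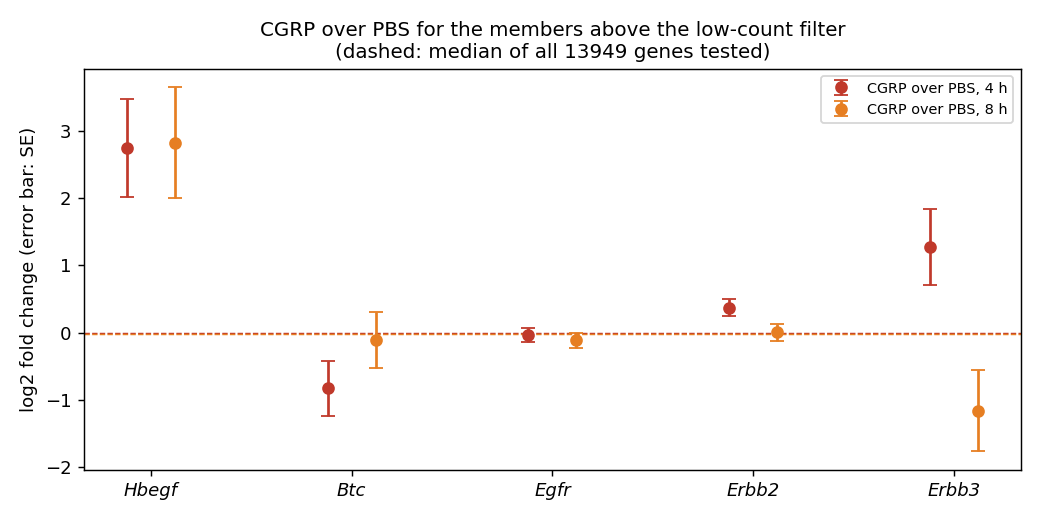
Log2 fold change of CGRP over PBS at 4 h and at 8 h for the 5 members above the low-count filter, with error bars of 1 SE and dashed lines at the median of all 13949 genes tested. Hbegf lies near 2.8 at both times, Egfr near 0, and Erbb3 is at 1.27 at 4 h and −1.16 at 8 h.

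The other 4 ligand genes held too few reads for the fit, and their raw counts are given instead. Areg, the gene of amphiregulin (chromosome 5, 91139599 to 91148432, plus strand), had 0, 2, 2 and 5 reads in CGRP libraries at 4 h and no read in the 4 PBS libraries. Thus 3 of the 4 CGRP libraries held the transcript, and a group total of 0 reads allows up to 0.0883 CPM (a floor of 3 counts over the group). Set against that floor, Areg was 3.03-fold higher after CGRP at 4 h, and 1.74-fold higher without CGRP 4 h replicate 4, which held 5 of the 9 reads. These folds take the CGRP reads as exact, so they are not lower limits. Only CGRP replicate 2 at 8 h, with 1 read, and PBS replicate 3 at 8 h, also with 1 read, held it at the later time.

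Ereg, the gene of epiregulin, lies next to Areg (chromosome 5, 91074622 to 91093646, plus strand). It had 0, 5, 1 and 8 reads in CGRP libraries at 4 h and 0, 1, 0 and 5 in PBS libraries. The ratio of pooled counts was 2.36 (95% exact interval 0.852 to 7.49, which covers counting error only), and it was 10.2 without PBS 4 h replicate 4 and 1.30 without CGRP 4 h replicate 4. At 8 h Ereg had 8, 0, 9 and 4 reads after CGRP and none in the 4 PBS libraries. Set against the floor of 3 counts over the group, it was 5.69-fold higher after CGRP, with the CGRP reads taken as exact. CGRP replicate 2 was also at 0, so the groups overlapped there.

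Along chromosome 5 the ligand genes Epgn, Ereg, Areg and Btc follow one another, and the first 3 share the plus strand. CGRP acts through a receptor that raises cAMP, and the cAMP response element (CRE, TGACGTCA) is the letter sequence bound by CREB. The start regions of members were therefore searched for it, for its shorter form (TGACG, which also lies within each full CRE) and for the AP-1 letters TGANTCA, on both strands. RefSeq promoters of GRCm38.p6, from 250 bases before to 50 after the gene start, were available for 5 of the 9 members, and only these were searched. Areg, Btc and Erbb2 are shown because each held a match, printed on the strand of the gene with the matches in capitals.
Areg, chr5:91139349-91139648, plus strand: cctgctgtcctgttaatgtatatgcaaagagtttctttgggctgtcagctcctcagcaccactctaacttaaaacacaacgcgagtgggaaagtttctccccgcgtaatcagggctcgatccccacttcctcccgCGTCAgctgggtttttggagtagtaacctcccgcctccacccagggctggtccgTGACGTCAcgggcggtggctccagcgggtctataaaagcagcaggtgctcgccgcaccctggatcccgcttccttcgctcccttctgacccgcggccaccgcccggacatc
Btc, chr5:91402945-91403244, minus strand: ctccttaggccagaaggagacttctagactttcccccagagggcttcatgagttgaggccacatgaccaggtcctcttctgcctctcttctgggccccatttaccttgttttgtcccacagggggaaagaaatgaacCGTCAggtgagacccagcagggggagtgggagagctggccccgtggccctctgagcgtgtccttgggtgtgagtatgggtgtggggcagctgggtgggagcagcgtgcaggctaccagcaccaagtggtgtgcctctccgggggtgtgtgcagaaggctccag
Erbb2, chr11:98412234-98412533, plus strand: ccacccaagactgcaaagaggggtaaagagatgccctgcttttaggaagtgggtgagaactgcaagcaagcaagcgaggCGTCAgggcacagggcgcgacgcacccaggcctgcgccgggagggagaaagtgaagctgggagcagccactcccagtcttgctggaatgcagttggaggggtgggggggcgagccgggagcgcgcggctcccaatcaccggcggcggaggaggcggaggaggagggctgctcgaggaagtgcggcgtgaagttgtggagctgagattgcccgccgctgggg

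Areg carried a full CRE beginning 61 bases before the RefSeq gene start and a separate short form on the other strand at 115 bases before it. A full CRE stood in 1.79% of the 32851 promoters of the same length in the table. Btc and Erbb2 held only the short form on the other strand, at 113 and 171 bases before their starts, which 20.8% of all promoters held at least once. Tgfa and Egfr had no match to any of the 3 motifs in this window, and the AP-1 letters, present in 7.81% of all promoters, were in none of the 5. A match describes letters only, not a bound site. Hbegf, Ereg, Nrg1 and Erbb3 had no entry among these promoters, so their start regions were not searched and no sequence is shown for them.

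Tgfa, the gene of transforming growth factor alpha (chromosome 6, 86195223 to 86275719, plus strand), had 7, 0, 3 and 9 reads in CGRP libraries at 4 h and 0, 5, 8 and 10 in PBS libraries. The ratio of pooled counts was 0.836 (interval 0.430 to 1.60), and the groups overlapped. Later, at 8 h, it had 0, 2, 8 and 1 reads after CGRP and 8, 2, 5 and 5 after PBS, a ratio of 0.447 (0.194 to 0.979), which was 0.169 without CGRP 8 h replicate 3. These groups overlapped as well, since that replicate reached the highest PBS count.

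Nrg1, the gene of neuregulin 1, a ligand of ERBB3 and ERBB4, lies on chromosome 8 (31814551 to 32884029, minus strand). At 4 h it had 3, 2, 5 and 9 reads in CGRP libraries and 1, 0, 0 and 3 in PBS libraries. The ratio of pooled counts was 4.81 (1.60 to 19.4), and only CGRP replicates 1 and 2 fell within the PBS range. It was 13.8 without PBS 4 h replicate 4, which held 3 of the 4 PBS reads. The counts at 8 h were 9, 5, 1 and 0 after CGRP and 1, 0, 6 and 2 after PBS, with a ratio of 1.36 (0.556 to 3.51) and overlapping groups. That ratio turned to 0.753 without CGRP 8 h replicate 1 and was 3.13 without PBS 8 h replicate 3. The 3 genes whose exons overlap Ereg, Tgfa and Nrg1 on the opposite strand held 0 or 1 read per group.

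CGRP 4 h replicate 4 had the highest CPM of its group for 6 of the 9 members (Hbegf, Areg, Ereg, Tgfa, Nrg1 and Egfr) and the lowest for Btc and Erbb3. Among the PBS libraries of that time, replicate 4 was highest for 5 members and lowest for none.

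**Figure D4:**
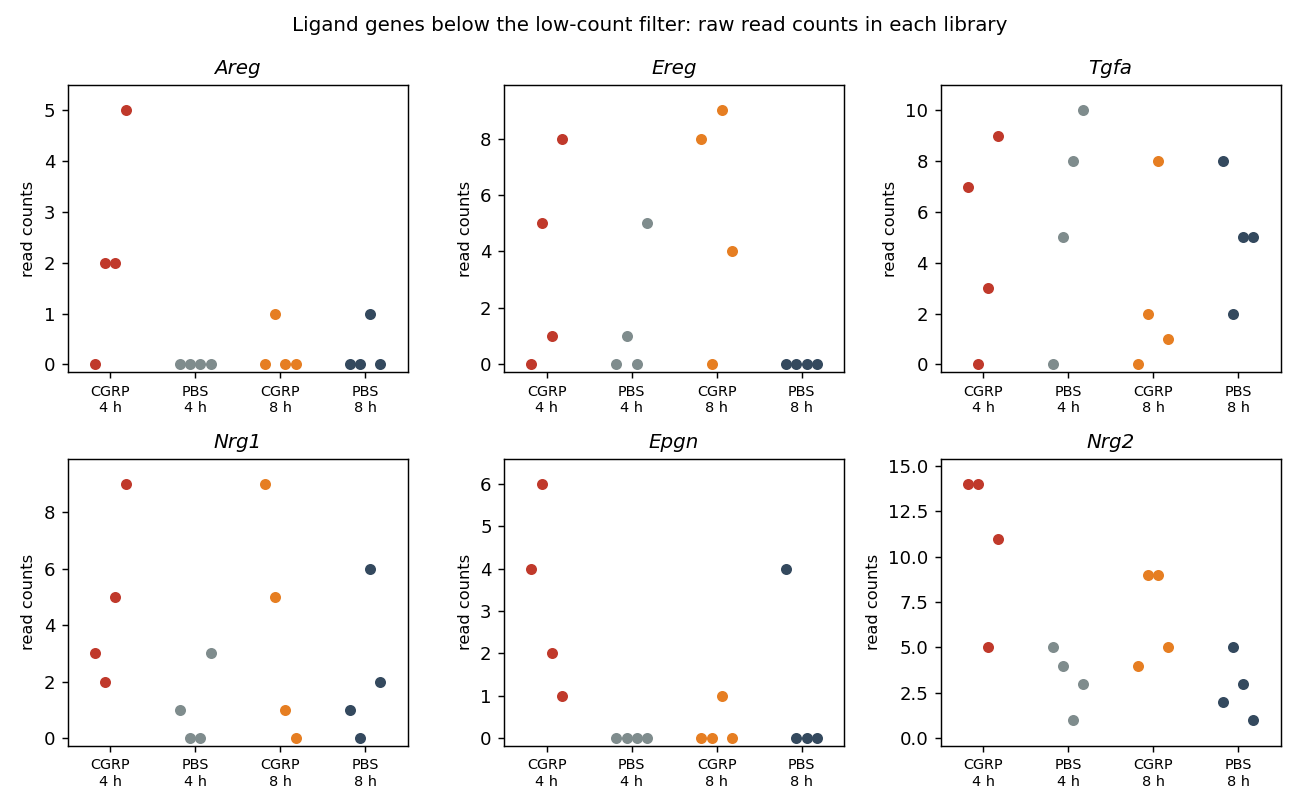
Raw read counts in each library for the 4 member ligands below the low-count filter and for Epgn and Nrg2, with 1 point per library (replicates 1 to 4 in order within a group). Areg and Epgn have no read in the PBS libraries at 4 h, and Ereg has none in the PBS libraries at 8 h.

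Of the 6 family genes outside the 9, the ligand gene Epgn (epigen), upstream of Ereg on chromosome 5 (91027464 to 91035215, plus strand), had 4, 6, 2 and 1 reads in CGRP libraries at 4 h and none in the PBS libraries. Set against the floor, with the CGRP reads taken as exact, Epgn was 4.38-fold higher. Its 8 h totals were 1 read in CGRP libraries and 4 in PBS libraries. Nrg2 (neuregulin 2) had 14, 14, 5 and 11 reads after CGRP at 4 h and 5, 4, 1 and 3 after PBS. The ratio was 3.42 (1.81 to 6.93, counting error only). The groups overlapped, since CGRP replicate 3 had 0.628 CPM and PBS replicate 1 had 0.712 CPM. The 8 h totals of Nrg2 were 27 reads after CGRP and 11 after PBS in all, a ratio of 2.00 (0.958 to 4.46), again with overlapping groups. Nrg3 had 7 reads after CGRP (6 of them in replicate 1) and 2 after PBS at 4 h, and 4 after CGRP and 16 after PBS at 8 h. The receptor gene Erbb4 had 8 reads after CGRP and 5 after PBS at 4 h, and 5 after CGRP and 20 after PBS (11 of them in replicate 3) at 8 h. Egf and Nrg4 passed the low-count filter but not the test (edgeR's quasi-likelihood test, Benjamini-Hochberg adjustment, as for every adjusted p here). Nrg4 had a log2 fold change of 1.58 ± 0.72 at 4 h (adjusted p = 0.142) and Egf of 0.77 ± 0.56 (adjusted p = 0.408). At 8 h the values were of the other sign, −0.32 ± 0.66 for Nrg4 (adjusted p = 0.835) and −0.45 ± 0.55 for Egf (adjusted p = 0.693).

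Further genes of the pathway were taken from 4 lists by role, which were written with part of these results known. Together with the 6 family genes they hold 101 genes, of which 93 were tested. At 4 h 7 of the 93 (7.53%) rose after CGRP and 14 (15.1%) fell, beside 7.84% and 8.37% of all genes, and their median log2 fold change was 0.00. At 8 h 7 (7.53%) rose and 4 (4.30%) fell, beside 5.00% and 3.67% of all genes, with a median of −0.04. The 8 h calls depended on single libraries: the 7 that rose became 3 without CGRP 8 h replicate 4, and 4 without CGRP 8 h replicate 1 or PBS 8 h replicate 1, 3 or 4. The 4 that fell became 1 without CGRP 8 h replicate 1 or PBS 8 h replicate 4, and 2 without CGRP 8 h replicate 4 or PBS 8 h replicate 3. At 4 h the 7 that rose became 12 without CGRP 4 h replicate 1.

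Among 14 tested genes of ligand shedding and processing, 2 (14.3%) rose and 1 (7.14%) fell at 4 h, beside 7.84% and 8.37% of all genes. Adam9, a membrane metalloprotease, had 224 ± 13.6 CPM in CGRP cells and 151 ± 30.8 CPM in PBS cells (SD, n = 4 each; log2 fold change 0.57 ± 0.12, adjusted p = 0.00167 by edgeR). Nrd1, the table's symbol for nardilysin, a peptidase that enhances the shedding of HB-EGF, rose by 0.56 ± 0.13 (adjusted p = 0.00403). Cd9, a tetraspanin that associates with the HB-EGF precursor, fell to 616 ± 53.3 CPM in CGRP cells, against 897 ± 60.3 CPM in PBS cells (−0.54 ± 0.07, adjusted p = 3.85e-05). At 8 h 2 genes of the list (14.3%) rose and none fell by edgeR, beside 5.00% and 3.67% of all genes. In the lower direction 1 had an unadjusted p under 0.05, and DESeq2 called 0. Adam12, another metalloprotease known to cut HB-EGF, had 22.5 ± 11.2 CPM in CGRP cells and 4.09 ± 1.64 CPM in PBS cells (2.45 ± 0.45, adjusted p = 0.00399). Furin, the proprotein convertase that matures ADAM proteases, had 35.7 ± 3.32 CPM in CGRP cells and 25.3 ± 5.02 CPM in PBS cells (0.50 ± 0.15, adjusted p = 0.0363), a call lost without any 1 of CGRP 8 h replicates 1, 2 and 4 and PBS 8 h replicates 1, 3 and 4. The list's median log2 fold change was −0.02 at 4 h, with a mean of 0.06, and 0.01 at 8 h.

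Of 32 tested genes that relay the receptor signal, 4 (12.5%) rose and 5 (15.6%) fell at 4 h, beside 7.84% and 8.37% of all genes. Pik3r2, a regulatory subunit of PI3K, fell to 172 ± 14.7 CPM in CGRP cells, against 284 ± 23.7 CPM in PBS cells (log2 fold change −0.73 ± 0.08, adjusted p = 3.92e-06 by edgeR). Mapk3, which encodes ERK1, fell to 26.2 ± 4.65 CPM, against 47.2 ± 5.23 CPM in PBS cells (−0.85 ± 0.13, adjusted p = 8.66e-05), and the adaptor gene Nck1 fell as well (−0.47 ± 0.09, adjusted p = 0.000667). Among those that rose were the scaffold gene Ksr1 (0.69 ± 0.16) and the kinase gene Map2k1 (0.28 ± 0.08), both named after their values were seen. Plcg1 also fell (−0.46 ± 0.12).

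Pik3r1, the main regulatory subunit gene of PI3K, fell at both times. At 4 h it had 80.5 ± 12.4 CPM in CGRP cells and 122 ± 9.02 CPM in PBS cells (−0.60 ± 0.12, adjusted p = 0.00123 by edgeR), and at 8 h 109 ± 5.96 CPM in CGRP cells and 151 ± 28.2 CPM in PBS cells (−0.47 ± 0.12, adjusted p = 0.014). The 8 h call was lost without CGRP 8 h replicate 1 and without PBS 8 h replicate 4. It was at 8 h the 1 gene of this list that fell, and 2 rose: the transcription factor gene Stat5a (0.43 ± 0.11, adjusted p = 0.0165) and Nras (0.28 ± 0.09, adjusted p = 0.0451). The call of Stat5a was lost without CGRP 8 h replicate 1 or 4 or PBS 8 h replicate 2, and that of Nras without CGRP 8 h replicate 1, 3 or 4 or PBS 8 h replicate 1, 3 or 4. In all, 6.25% of the list rose and 3.12% fell at 8 h, beside 5.00% and 3.67% of all genes. The list's median log2 fold change was −0.06 at 4 h and −0.09 at 8 h.

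Of 24 tested genes of receptor feedback and turnover, 1 (4.17%) rose and 5 (20.8%) fell at 4 h, beside 7.84% and 8.37% of all genes. Both Sprouty genes that fell encode ERK-induced inhibitors of receptor signalling. Spry4 fell to 14.3 ± 4.02 CPM in CGRP cells, against 27.5 ± 7.68 CPM in PBS cells (−0.94 ± 0.22, adjusted p = 0.0052 by edgeR), and Spry1 fell to 50.8 ± 8.80 CPM, against 73.3 ± 6.27 CPM in PBS cells (−0.53 ± 0.13, adjusted p = 0.00685). Lrig1, which promotes the degradation of EGF receptors, fell by 0.46 ± 0.11 on the log2 scale (adjusted p = 0.00548), and Sh3kbp1, an adaptor of receptor endocytosis, fell by 0.58 ± 0.09 (adjusted p = 0.000164). The ERK phosphatase gene Dusp6 fell by 0.61 ± 0.17, a call lost without CGRP 4 h replicate 1 or 4 or PBS 4 h replicate 1 or 2.

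Socs5, which reduces EGFR levels when overexpressed, rose at both times, by 0.92 ± 0.25 at 4 h (adjusted p = 0.0208 by edgeR) and 0.91 ± 0.25 at 8 h (adjusted p = 0.0341). The 4 h call was lost without CGRP 4 h replicate 4 or PBS 4 h replicate 1 or 2, and the 8 h call without CGRP 8 h replicate 1 or 4 or any PBS 8 h library. At 8 h the endocytic adaptor gene Eps15 fell by 0.39 ± 0.10 (adjusted p = 0.0198), lost without CGRP 8 h replicate 1 or 4 or PBS 8 h replicate 3 or 4. Lrig2 fell by 0.41 ± 0.12 (adjusted p = 0.03), lost without CGRP 8 h replicate 1, 3 or 4 or PBS 8 h replicate 1, 3 or 4. In all, 4.17% of the list rose and 8.33% fell at 8 h, beside 5.00% and 3.67% of all genes. The list's median log2 fold change was −0.05 at 4 h and −0.01 at 8 h.

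Of 21 tested genes that ERK signalling is known to induce, none rose and 3 (14.3%) fell at 4 h, beside 7.84% and 8.37% of all genes. Even so, the list's median log2 fold change was 0.26 and its mean 0.34. For the higher direction, where edgeR called none, 6 genes had an unadjusted p under 0.05 and DESeq2 called 2. Etv5, an ETS factor gene, fell at both times, to 22.3 ± 2.78 CPM in CGRP cells, against 31.3 ± 4.62 CPM in PBS cells at 4 h (−0.49 ± 0.14, adjusted p = 0.0166 by edgeR), and to 20.3 ± 2.51 CPM, against 32.7 ± 2.77 CPM in PBS cells at 8 h (−0.69 ± 0.14, adjusted p = 0.00334). Its 4 h call was lost without CGRP 4 h replicate 1 or 4 or PBS 4 h replicate 1. The cyclin D1 gene Ccnd1 (−0.71 ± 0.23, adjusted p = 0.0393) and Klf6 (−0.29 ± 0.09, adjusted p = 0.0402) fell at 4 h. Ccnd1 was lost without CGRP 4 h replicate 1 or 4, PBS 4 h replicate 1, 2 or 3, CGRP 8 h replicate 3 or PBS 8 h replicate 1, and Klf6 without any library other than CGRP 4 h replicate 3 and PBS 4 h replicate 2.

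At 8 h 2 genes of that list (9.52%) rose and 1 (4.76%) fell, beside 5.00% and 3.67% of all genes. Fosl1, an AP-1 subunit gene, had 29.2 ± 17.8 CPM in CGRP cells and 1.65 ± 0.41 CPM in PBS cells (SD, n = 4 each; log2 fold change 4.13 ± 0.76, adjusted p = 0.006 by edgeR). Plaur, the urokinase receptor gene, had 49.7 ± 23.8 CPM in CGRP cells and 12.8 ± 1.68 CPM in PBS cells (1.95 ± 0.41, adjusted p = 0.0106). At 4 h Fosl1 had 24.0 ± 15.5 CPM in CGRP cells and 6.36 ± 3.94 CPM in PBS cells (1.92 ± 0.63, adjusted p = 0.0558), and Plaur had 39.9 ± 17.4 CPM in CGRP cells and 20.1 ± 5.89 CPM in PBS cells (0.98 ± 0.39, adjusted p = 0.11). For neither gene did the 8 h effect minus the 4 h effect pass the test (2.21 ± 1.01, adjusted p = 0.34, and 0.98 ± 0.56, adjusted p = 0.467). The list's median at 8 h was −0.01 and its mean 0.35.

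**Figure D5:**
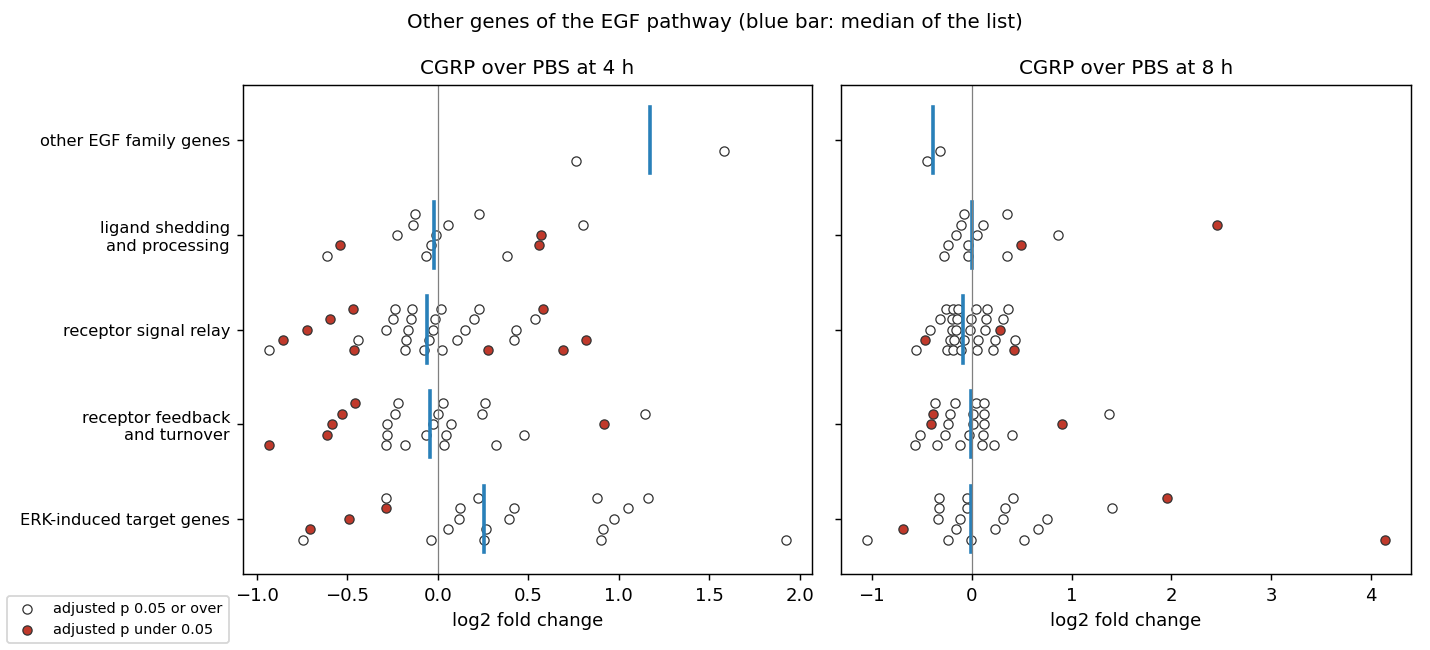
Log2 fold change of CGRP over PBS for the other pathway genes at 4 h (left panel) and 8 h (right panel), 1 row per list, with filled points for adjusted p under 0.05 and a blue bar at the median of the list. At 4 h 7 points are filled right of 0 and 14 left of it, and at 8 h 7 and 4, where Fosl1 (4.13) lies farthest out.

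The genes most like 3 members in pattern over the 16 libraries, by Pearson correlation of log2 CPM among 9842 genes of at least 5 CPM, are given as a description. The libraries share their groups and their scaling. For Hbegf they were Furin (Pearson 0.90, Spearman 0.93), Pfas (0.90 and 0.78) and Peg12 (0.89 and 0.84). Pfas, which encodes an enzyme of purine synthesis, had 63.1 ± 4.66 CPM in CGRP cells and 41.2 ± 3.55 CPM in PBS cells at 4 h, and 56.6 ± 17.2 CPM in CGRP cells and 31.7 ± 7.76 CPM in PBS cells at 8 h (SD, n = 4 each). Without the 2 libraries farthest from the median of Hbegf, the 3 Pearson values were 0.86, 0.80 and 0.84. Erbb2 was nearest to Slc30a9 (0.92 and 0.79), Zbtb7a (0.91 and 0.83) and Mgat2 (0.90 and 0.88), each of which had its lowest mean in PBS cells at 4 h, as Erbb2 did. For Egfr they were Alkbh5 (0.81 and 0.61), Irf2 (0.77 and 0.75) and Prkx (0.76 and 0.67), which without its 2 farthest libraries came to 0.58, 0.51 and 0.66.

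Markers of other cell types were read in the same libraries. The 4 perineurial markers, mostly Slc2a1 and Cldn1, summed to 17.0 to 37.2 CPM after CGRP and 5.41 to 16.4 CPM after PBS at 4 h, and to 8.26 to 25.5 CPM after CGRP and 15.5 to 16.9 CPM after PBS at 8 h, with 1 read of Krt18 in all. The 6 satellite cell markers, mostly Sdc4 and Vcam1, summed to 361 to 494 CPM after CGRP and 304 to 452 CPM after PBS at 4 h, and to 330 to 547 CPM after CGRP and 245 to 295 CPM after PBS at 8 h. These sums lay wholly higher after CGRP at 4 h for the perineurial list and at 8 h for the satellite list, as did Hbegf, and their part in the values of Hbegf was not tested. Within each list 1 gene had separate groups at that time: Slc2a1 had 11.7 to 32.8 CPM after CGRP and 3.56 to 7.91 CPM after PBS at 4 h, and Sdc4 had 256 to 473 CPM after CGRP and 179.5 to 200.03 CPM after PBS at 8 h, while the groups overlapped for every other marker of the list. The 7 pericyte and smooth muscle markers, mostly Cspg4 and Des, summed to 86.6 to 101 CPM after CGRP and 127 to 164 CPM after PBS at 4 h, wholly lower after CGRP, and overlapped at 8 h. The 7 endothelial markers, nearly all Tek, summed to 78.2 to 106 CPM after CGRP and 109 to 131 CPM after PBS at 8 h, also wholly lower, and overlapped at 4 h. The epithelial list, mostly Krt10, was wholly lower after CGRP at 8 h too, with 3.06 to 4.58 CPM after CGRP and 4.96 to 6.38 CPM after PBS. Yet the groups overlapped there for each of its markers. Krt10 had 3.06 to 4.37 CPM after CGRP and 4.30 to 5.92 CPM after PBS, and Epcam had 0 to 0.404 CPM after CGRP and 0 after PBS. The part of these lists in the members' values was not tested. The 10 Schwann cell markers, of interest because Schwann cells use ERBB3, summed to 7.72 to 12.2 CPM after CGRP and 11.7 to 19.5 CPM after PBS at 4 h, and to 9.79 to 15.1 CPM after CGRP and 12.3 to 14.8 CPM after PBS at 8 h. Their defining members were near 0, with 3 reads of Sox10 and none of Pmp2 in all 16 libraries.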

How the data were processed

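The authors deposited raw counts of reads for each gene symbol. The submitters' processing notes name STAR 2.5.4, featureCounts and the mm10 build. Per the labels' protocols, RNA was primed with oligo(dT), amplified by limited PCR and tagmented (Nextera XT), so the strand is not marked. The annotation and the strand setting of the counting are not stated there. Totals were 6373713 to 10011920 counts per library. Intervals and floors (95%, 3 counts) cover counting error only, since reads are PCR copies without molecular identifiers. A fold against a floor takes the reads of the other group as exact, so it is not a lower limit.

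Counts were fitted with edgeR 4.0.16 in R 4.3.3: filterByExpr (13949 genes kept), TMM scaling, and a robust quasi-likelihood fit of 1 mean per group to all 16 libraries. Tests were two-sided, with Benjamini-Hochberg adjustment over all genes and a threshold of 0.05. CPM used TMM-scaled library sizes. Over 24 pairs within groups, the chi-square of counts was 6.52 to 22.7 times its degrees of freedom, so no 2 libraries of a group were copies of each other. Positions and exonic lengths came from GENCODE M21, in which 49365 of 52997 symbols matched.

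Members and lists were chosen with earlier results of these data known. The text names all members, the 6 other family genes, up to 4 called genes of smallest p per list and time, and the 3 genes nearest in pattern to Hbegf and to members of at least 5 CPM. Where a list had no call, its 2 most abundant genes were taken. Alternatives were RLE and upper-quartile scaling, DESeq2 1.42.0, no low-count filter, a replicate block, the 2 groups compared alone, and leaving out libraries. A few listed genes are counted but not reported here by name.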

Additional observations from a re-analysis of the deposited data

Results flagged for a closer look

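Within groups of 4, some single libraries lay far from the other 3, which chance gives in about 1 in 20 groups of continuous values. That rate does not hold for low counts, where a library with reads beside 3 at 0 always stands apart. Areg had 0.108 CPM in CGRP 8 h replicate 2 and 0.152 CPM in PBS 8 h replicate 3, each a single read against 0 in the other 3 libraries. Erbb3 was lowest in PBS 8 h replicate 3, at 0.456 CPM from 3 reads. Epgn had 0.104 CPM in CGRP 8 h replicate 3 from 1 read and 0.509 CPM in PBS 8 h replicate 1 from 4 reads, with 0 in the rest of each group.

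The effect of CGRP over PBS at 8 h differed from that at 4 h for 7 of the 93 tested genes of the pathway lists, beside 1.12% of all genes (edgeR's quasi-likelihood test of the difference, Benjamini-Hochberg adjustment). On the log2 scale the 8 h effect minus the 4 h effect was 0.70 for Pik3r2 (adjusted p = 0.00273) and 0.70 for Sh3kbp1 (adjusted p = 0.00715). Both calls held when any 1 library was left out. It was 0.71 for Stat5a (adjusted p = 0.0231), a call lost without PBS 4 h replicate 1 or 2. It was 0.68 for Lrig1 (adjusted p = 0.0274), lost without CGRP 4 h replicate 4, CGRP 8 h replicate 2 or 4 or PBS 8 h replicate 1, 3 or 4. It was −0.80 for Nrd1 (adjusted p = 0.028), lost without CGRP 4 h replicate 1 or 4, CGRP 8 h replicate 2 or 3 or PBS 8 h replicate 1 or 4. For Ksr1 it was −0.96 (adjusted p = 0.0333), a call lost without any 1 library other than CGRP 4 h replicate 3, CGRP 8 h replicate 4, PBS 4 h replicate 3 and PBS 8 h replicates 2 and 4. For Cd9 it was 0.44 (adjusted p = 0.0402), a call lost without any 1 library other than CGRP 4 h replicate 3, CGRP 8 h replicate 4, PBS 4 h replicate 3 and PBS 8 h replicate 2. The CPM of Epgn, CGRP minus PBS, was 0.480 lower at 8 h than at 4 h (a difference of −0.480), which was not tested.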

How the results depend on the processing

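Members past the threshold: at 4 h there were 2 (Hbegf and Erbb2) with RLE scaling and with DESeq2, 0 without the low-count filter, 1 without the 4 libraries of most detected genes, which was Erbb2 and not Hbegf, and 0 to 2 when 1 library was left out. At 8 h there were 0 with RLE scaling, upper-quartile scaling or without the 4 libraries of most detected genes, 0 or 1 when 1 library was left out, and 1 without the filter, which was Ereg and not Hbegf. The 4 libraries of most detected genes were PBS 4 h replicate 4, PBS 8 h replicates 1 and 4 and CGRP 4 h replicate 3. They had 23294 to 25579 genes detected. Without them the PBS 8 h group held only replicates 2 and 3. No member passed in the lower direction under any setting run. Pathway genes that rose numbered 5 to 12 at 4 h and 3 to 10 at 8 h when 1 library was left out, and those that fell 10 to 14 and 1 to 5. At 8 h 11 rose with DESeq2, 11 with the 2 groups alone, and 0 without the 4 libraries of most detected genes, where 0 fell, and 7 fell with upper-quartile scaling. Of all genes, 1481 (without CGRP 4 h replicate 4) to 2245 were called at 4 h when 1 library was left out, against 2262. At 8 h there were 577 to 1297, against 1210, with 577, 676, 749, 789 and 696 without CGRP 8 h replicates 1 and 4 and PBS 8 h replicates 1, 3 and 4, and 191 without the 4 libraries. The difference of the effects gave 80 to 196 genes, against 156, with 427 by DESeq2, 456 without the filter and 63 without the 4 libraries. Counts moved by over 1.5 times without CGRP 4 h replicate 1 or 4, CGRP 8 h replicate 3, PBS 4 h replicate 2 or PBS 8 h replicate 1, 3 or 4. After PBS, 8 h against 4 h gave 17 to 280, against 72, with 334 by DESeq2 and 422 without the filter, and any library of the 2 PBS groups or CGRP 4 h replicate 1 moved it by over 1.5 times. After CGRP it gave 666 (without CGRP 8 h replicate 2) to 1014, against 1012. The cause of these shifts was not tested. The labels do not state that replicate numbers pair libraries. Deviations from the group mean correlated between −0.031 and 0.044 for same-numbered CGRP and PBS libraries of a time. Other pairs were not compared, so this does not settle whether the numbers pair libraries. With a replicate block, 2167 genes were called at 4 h and 1100 at 8 h, and 1 member passed at each time. Of 1407 values of single genes under these settings, 149 lost the threshold, 4 ratios of pooled counts moved past their interval and none changed direction past the threshold. The 149 are all values of pathway genes. Losses of members were not counted among them: Hbegf passed in 18 of 23 settings at 4 h and in 9 of 23 at 8 h. Many of the 1407, such as pooled ratios and values of genes not called at first, had no call to lose. Ratios below about 30 reads per group are limited by counting error.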
